A study of Mus musculus with 2 samples.

Results

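The 10 genes described here encode acute-phase and antimicrobial secreted proteins. They were chosen by name for what their proteins do, with earlier results of these data known. The genes are Saa1, Saa2, Saa3, Hp, Orm1, Lrg1, Ptx3, Lcn2, Slpi and Pglyrp1. All 10 are among the 24346 gene symbols listed in both libraries. Skin wounds of wild-type (WT) and PU.1-/- neonates were compared by mRNA sequencing, with 1 library per genotype, so that no value below has a replicate, an SD or a p-value. The wounds were dorsal and full-thickness, 1 cm long and made in 1-day-old C57BL/6J pups, and were harvested 24 h later. The study's methods call them incisional and the series' design text excisional. The knockout is labelled PU.1_KO, the WT pups were its littermates, and neither the number of pups in a library nor their sex is stated.

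PU.1, a transcription factor that blood progenitors need, is encoded by Spi1. It is missing from every cell of these pups, not from a single lineage, and the study describes such mice as having no macrophages, mast cells, neutrophils or T cells. Acute-phase proteins are plasma proteins whose synthesis changes in inflammation. The liver is their main source, and cytokines such as Il6, Il1b and Tnf drive their genes through the factors STAT3, C/EBP and NF-kB. Several are also made in injured epithelium, in fat or in phagocytes, and in skin they act on microbes, on proteases and on phagocytes that enter the wound.

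Serum amyloid A (SAA) proteins are small apolipoproteins that ride on high-density lipoprotein and attract phagocytes. The Saa genes are shown first, because Saa1 and Saa2 are near-identical and some of their reads could be assigned to either. In the GENCODE M21 annotation of GRCm38 the family lies together, with Saa3 at chr7:46711998-46715700 (minus strand), Saa4 at chr7:46727998-46732603 (minus), Saa1 at chr7:46740497-46742980 (minus) and Saa2 at chr7:46751790-46754313 (plus). Saa1 and Saa2 each have 4 exons, and their coding sequences differ at 18 of 369 bases, an identity of 95.1%. The stretch below, coding bases 75 to 149 on the coding strand, is as long as 1 read and holds 10 of those differences, in capitals.

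Saa1: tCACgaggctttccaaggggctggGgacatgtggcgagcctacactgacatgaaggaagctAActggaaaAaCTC

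Saa2: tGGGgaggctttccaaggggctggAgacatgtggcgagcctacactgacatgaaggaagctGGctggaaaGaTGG

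Elsewhere in the transcripts the pair is closer in some windows and further apart in others. The Saa1 window that starts at nt 418, past the coding sequence, has 29 mismatches to its nearest Saa2 window, compared without gaps. Of 535 read-length windows of 75 bases in the Saa1 transcript, 25 (4.67%) occur letter for letter in Saa2, and 121 (22.6%) match it with at most 2 mismatches. Saa3 is more distant, with a coding identity of 73.2% to Saa1 and 71.5% to Saa2, and 15 Saa1 windows match it within 2 mismatches. RefSeq lists the symbols Saa1 and Saa2 as synonyms of each other, so which of the pair carries each symbol in the authors' annotation is not settled here. Among the other members, Orm1 shares 97 of 701 windows (13.8%) with Orm2, and 183 (26.1%) match within 2 mismatches. The remaining 7 members share no exact window with another gene's transcript.

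**Figure D1:**
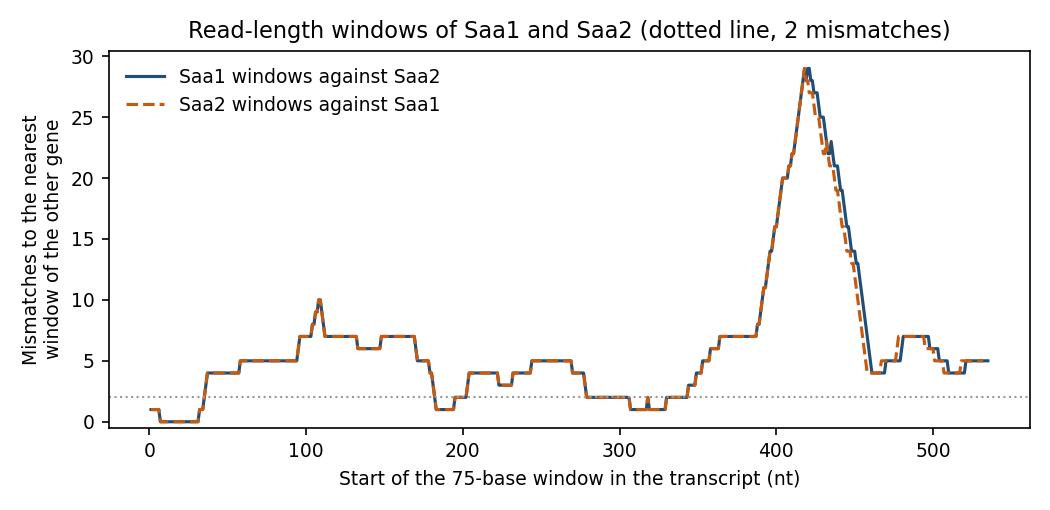
Mismatches (y axis) between each 75-base window of the Saa1 or Saa2 transcript and the nearest window of the other gene, by the window's start in the transcript (x axis, nt). 25 windows of each gene lie at 0 mismatches and 121 of the 535 Saa1 windows lie at or under the dotted line of 2 mismatches.

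Upstream sequence is shown for the SAA members and for Pglyrp1, the genes with the largest differences between the libraries and the nearest relative of one of them. Each stretch runs from 200 to 51 bases before the RefSeq start of the gene on GRCm38.p6, 5′ to 3′ along the gene's own strand, and overlaps no annotated exon. Capitals mark matches, on either strand, to the C/EBP motif TTGCNNAA, the PU.1/ETS core GAGGAAG or the NF-kB consensus.

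Saa1, chr7:46743031-46743180, minus strand: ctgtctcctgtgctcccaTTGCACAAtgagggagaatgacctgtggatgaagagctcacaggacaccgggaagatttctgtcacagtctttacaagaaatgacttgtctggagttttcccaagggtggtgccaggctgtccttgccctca

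Saa2, chr7:46751633-46751782, plus strand: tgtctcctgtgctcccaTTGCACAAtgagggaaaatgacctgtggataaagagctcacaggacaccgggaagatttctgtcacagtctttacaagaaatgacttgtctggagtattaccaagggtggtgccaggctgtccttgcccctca

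Saa3, chr7:46715727-46715876, minus strand: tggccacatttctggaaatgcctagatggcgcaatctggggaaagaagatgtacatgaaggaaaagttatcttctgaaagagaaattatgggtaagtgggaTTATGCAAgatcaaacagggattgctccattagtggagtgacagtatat

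Pglyrp1, chr7:18884490-18884639, plus strand: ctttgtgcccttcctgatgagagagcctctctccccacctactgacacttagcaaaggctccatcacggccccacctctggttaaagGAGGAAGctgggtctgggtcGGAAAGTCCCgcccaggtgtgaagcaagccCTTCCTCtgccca

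RefSeq promoters were found for 8 of the 10 members, all but Hp and Orm1. In the 250 bases before the start, 6 of the 8 (Saa1, Saa2, Saa3, Lcn2, Ptx3 and Slpi) hold the C/EBP letters, which occur in 9.56% of 32851 promoters. The PU.1/ETS core was found in Lcn2 and Pglyrp1, with 2 matches in Pglyrp1, and occurs in 10.6% of all promoters. The NF-kB consensus matched in Pglyrp1 and occurs in 3.90% of promoters, while the STAT motif TTCNNNGAA (7.02% of promoters) and TATAAA (12.4%) matched in none of the 8. No match in a member overlaps a match to another motif. The C/EBP matches of Saa1 and Saa2 are the same letters, TTGCACAA, in near-identical sequence, so the 6 are not independent. From 200 to 51 bases before the start, Lcn2 overlaps 2 annotated exons and Lrg1 overlaps 1. These are letter matches in a fixed window and not measured binding.

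The level of a gene is given in FPKM, fragments per kilobase of transcript and unit of sequencing depth, which divides by length and so allows genes to be compared. The values analysed are FPKM and not read numbers. From the steps between low FPKM values the WT library was estimated at 13746400 reads and the PU.1-/- library at 15789400 reads, and the ratio of each member carries a 95% exact (Clopper-Pearson) interval on the estimated reads, which covers counting error only. Spi1 itself was at 35.4 FPKM in the WT library against 1.45 FPKM in the PU.1-/- library, 4.12% of WT. A gene is called lower or higher here when the libraries differ at least 2-fold, with FPKM values below 0.1 raised to 0.1. Of the 24346 genes, 1057 (4.34%) were lower and 565 (2.32%) were higher in the knockout. The median log2 ratio was -0.01 over genes of at least 0.1 FPKM in 1 or both libraries. The libraries also differed in Xist, at 0 in WT and 9.48 FPKM in PU.1-/-, and in the Y-linked Eif2s3y, at 38.5 and 0 FPKM, so sex and genotype cannot be told apart. Skeletal muscle markers summed to 176% and red blood cell markers to 168% of WT in the PU.1-/- library, and their part in the values below was not tested.

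Of the 10 members, 3 were lower (Saa2, Saa3 and Pglyrp1), 0 were higher and 7 were neither. At a ratio of 1.5, 6 were lower and 0 higher, against 7.67% and 5.79% of all genes. Of the 6956 genes that reached 10 FPKM in WT, a group that holds all 10 members, 209 were lower and 33 higher 2-fold. At any ratio, 9 of the 10 were below their WT level as deposited, against 54.1% of those 6956 genes. All 10 were with the libraries scaled to keratinocyte and fibroblast markers, which lowers every PU.1-/- value by the same factor. The share of those 6956 genes below WT was not taken under that scaling, so the count of 10 has no background. The median log2 ratio of the members was -0.61, beside -0.02 for the same genes of at least 10 FPKM. Summed over the members, the level was 6566 FPKM in the WT wound against 3815 FPKM in the PU.1-/- wound, 58.1% of WT. Saa3 and Hp carried most of that sum, and the other 8 members together were at 72.1% of WT. The counting interval lay wholly below 100% of WT for 8 members and held 100% for Saa1 and Orm1. The share of all genes with an interval wholly below 100% was not taken, so the count of 8 has no background beside it.

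**Figure D2:**
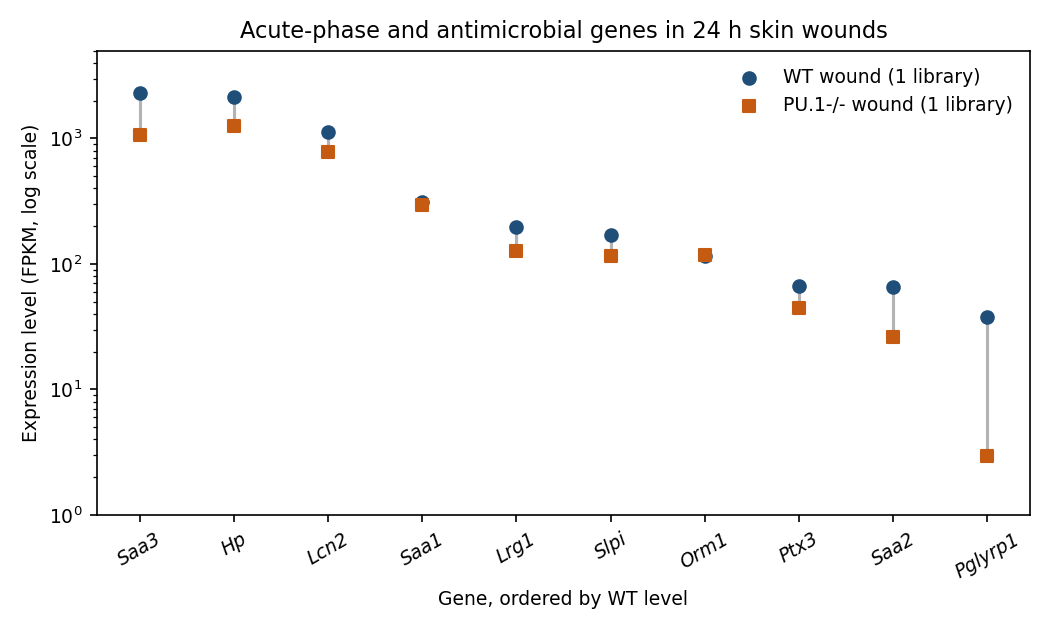
Level of each gene (y axis, FPKM on a log scale) in the WT wound (circles) and the PU.1-/- wound (squares), 1 library each, with genes ordered by WT level on the x axis. Saa3, Hp and Lcn2 are the highest in both wounds, Orm1 is the only gene of the 10 that is not below its WT level as deposited (it is below once the libraries are scaled to keratinocyte and fibroblast markers), and Pglyrp1 shows the widest gap.

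Saa3 is the SAA gene expressed mainly outside the liver, in macrophages, fat and epithelium. From single-cell data of adult wounds, the study also places it in fibroblast subclusters. Saa3 was the highest member in the WT wound, at 2318 FPKM, and was at 1059 FPKM in the PU.1-/- wound. The PU.1-/- level was 45.7% of WT (interval 44.3 to 47.2%), a log2 ratio of -1.13. By level it was gene 49 of the WT library and gene 122 of the PU.1-/- library, so it stayed among the most abundant transcripts. Of the 6956 genes that reached 10 FPKM in WT, 2.73% had a ratio at or below that of Saa3.

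Saa1 and Saa2 encode the circulating SAA proteins, which the liver makes in large amounts in the acute phase. Saa1 was at 310 FPKM in the WT wound against 293 FPKM in the PU.1-/- wound, 94.7% of WT (88.6 to 101%). Saa2 was at 65.6 FPKM and 26.3 FPKM, 40.0% of WT (33.1 to 48.1%). The intervals of Saa2 and Saa3 overlapped, and that of Saa1 lay above both. Since some reads of Saa1 and Saa2 could be assigned to either, their sum was also taken. It was 376 FPKM in WT against 319.7 FPKM in PU.1-/-, and in estimated reads 85.2% of WT (80.1 to 90.5%). Within that pair, Saa2 made up 17.5% of the FPKM in WT against 8.22% in PU.1-/-. The fourth gene of the cluster, Saa4, whose product is present in plasma without inflammation, was at 0.514 FPKM in WT against 0.723 FPKM in PU.1-/-. Saa3 therefore exceeded the sum of its neighbours in both wounds, and the 3 members together were at 51.9% of WT in estimated reads (50.5 to 53.4%).

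**Figure D3:**
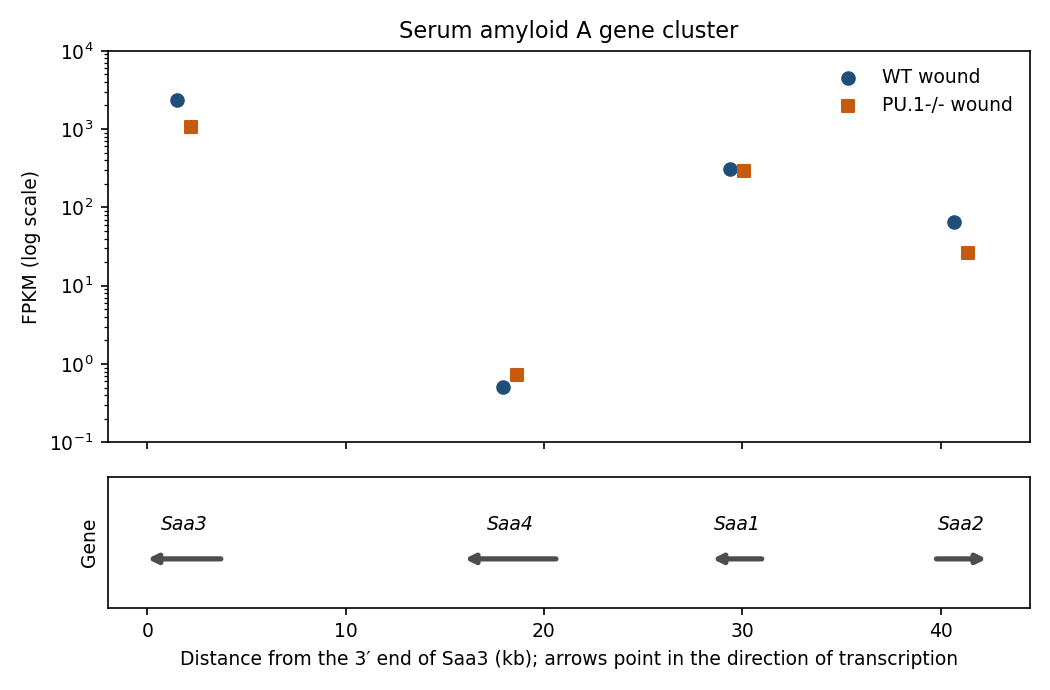
Upper panel, level of the 4 Saa genes (y axis, FPKM on a log scale) in the WT wound (circles) and the PU.1-/- wound (squares), placed side by side at the middle of each gene. Lower panel, the genes to scale by distance from the 3′ end of Saa3 (x axis, kb). Saa3 is highest and Saa4 is under 1 FPKM in both wounds.

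Hp (chr8:109575128-109579172, minus strand, 5 exons) encodes haptoglobin, which binds haemoglobin freed from red cells. It was at 2158 FPKM in the WT wound against 1249.8 FPKM in the PU.1-/- wound, 57.9% of WT (56.9 to 58.9%), a log2 ratio of -0.79. In the PU.1-/- library Hp was the highest member, ahead of Saa3. Hp was also the gene nearest to Saa3 in its pair of log2 FPKM values, of 6909 genes compared over the 2 libraries, followed by Gm5416 (1768 FPKM in WT against 968 in PU.1-/-) and Sprr1a (1724 and 1324). Sprr1a encodes a cornified envelope protein of keratinocytes. With 2 libraries, nearness says only that the levels were alike in each.

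Orm1 (chr4:63344560-63348163, plus strand, 6 exons) encodes orosomucoid, an acid glycoprotein of plasma that carries lipophilic molecules. Its level was 115 FPKM in the WT wound against 118 FPKM in the PU.1-/- wound, 102% of WT (93.3 to 112%). The sum of Orm1, Orm2 and Orm3, which sets aside how reads of the copies were divided, was 136 FPKM and 139 FPKM, 102% of WT in estimated reads (94.0 to 111%). Orm1 and Saa1 were the 2 members whose intervals held 100%, and their intervals overlapped.

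Lrg1 (chr17:56119678-56122001, minus strand, 2 exons) and Ptx3 (chr3:66219910-66225805, plus strand, 3 exons) encode a leucine-rich glycoprotein that modulates TGF-beta signalling in vessels and a long pentraxin that binds microbes and complement. Lrg1 was at 198 FPKM in the WT wound against 127 FPKM in the PU.1-/- wound, 64.2% of WT (60.9 to 67.7%). Ptx3 was at 67.2 FPKM and 44.6 FPKM, 66.5% of WT (61.6 to 71.7%). Neither reached a 2-fold difference, and the intervals of both lay below 100%.

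Lcn2, Slpi and Pglyrp1 act directly on microbes or on neutrophil proteases. Lcn2 (chr2:32384633-32388252, minus strand, 6 exons) encodes lipocalin 2, which takes up bacterial iron carriers, and was at 1125 FPKM in the WT wound against 779 FPKM in the PU.1-/- wound. The PU.1-/- level of Lcn2 was 69.2% of WT (67.3 to 71.2%). Slpi (chr2:164354070-164389095, minus strand, 4 exons in the transcript used) encodes an inhibitor of neutrophil elastase and cathepsin G with antimicrobial activity, and was at 171 FPKM in WT against 115 FPKM in PU.1-/-, 67.4% of WT (62.5 to 72.7%). The microRNA gene Mir7678 overlaps an exon of Slpi on the same strand. Lcn2, Lrg1, Ptx3 and Slpi thus lay between 64.2 and 69.2% of WT, and every pair among these 4 had overlapping intervals.

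Pglyrp1 (chr7:18871331-18890459, plus strand, 3 exons in the transcript used) encodes a peptidoglycan recognition protein stored in neutrophil granules. It was the lowest member in the WT wound, at 37.6 FPKM, and was at 2.95 FPKM in the PU.1-/- wound. The estimated reads were 255 and 23, and the PU.1-/- level was 7.85% of WT (4.89 to 12.0%), a log2 ratio of -3.67. The interval of Pglyrp1 did not overlap that of any other member. Of the 6956 genes that reached 10 FPKM in WT, 1.60% had a ratio at or below it. The related Pglyrp3 and Pglyrp4, expressed in epithelium, were at 14.1 and 12.2 FPKM in WT against 13.5 and 8.55 FPKM in PU.1-/-.

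**Figure D4:**
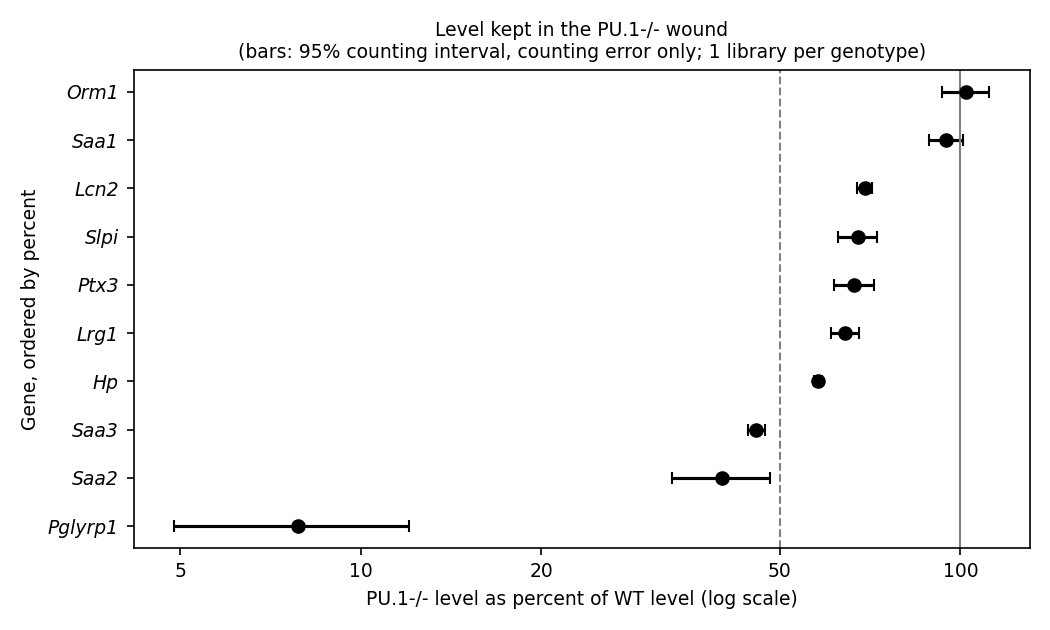
PU.1-/- level of each gene as a percent of its WT level (x axis, log scale), with 95% counting intervals from estimated reads as bars, 1 library per genotype. Solid line, 100%. Dashed line, 50%. Pglyrp1, Saa2 and Saa3 lie wholly below 50%, Hp, Lrg1, Ptx3, Slpi and Lcn2 between the lines, and the intervals of Saa1 and Orm1 cross 100%.

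Several of these genes are expressed in more than 1 cell type of a wound, and in bulk tissue fewer cells of a type and less RNA per cell cannot be told apart. Of 9 neutrophil markers listed, 7 were lower in the PU.1-/- library and their summed level was 678 FPKM in WT against 31.3 FPKM in PU.1-/-. Of the 9, Ngp, Ltf, Retnlg, Mmp8 and Csf3r were at 0 there, Elane was at 0.0887 FPKM, and Camp was at 77.6 FPKM in WT and 23.9 FPKM in the knockout. Cxcr2, a chemokine receptor, was at 11.2 and 7.17 FPKM, 63.8% of WT, and Mpo was at 0.185 and 0.0805 FPKM, both neither lower nor higher. Of 10 macrophage markers all 10 were lower, with sums of 652 and 5.79 FPKM, and Adgre1, Tyrobp, Fcgr1, C1qa and C1qb were at 0. Of 6 mast cell markers 5 were lower, with sums of 687 and 7.30 FPKM. Lcn2, Hp, Lrg1 and Slpi, which neutrophils also express, were at 57.9 to 69.2% of WT, and the part of neutrophil transcripts in those values was not tested.

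Hepatocyte markers summed to 1.67 FPKM in WT against 1.72 FPKM in PU.1-/-. Alb was at 1.10 and 0.719 FPKM, and Apob, Fabp1, Serpina1a, Cyp3a11 and Tat were at 0 in both, so liver transcripts were at or near 0 in both wounds. The 9 keratinocyte markers included none lower or higher and summed to 113% of WT, and the 8 fibroblast markers likewise summed to 117%. Of 6 endothelial markers 1 was higher (Vwf), and they summed to 119.8%. Scaling the libraries to equal sums of those keratinocyte and fibroblast markers shifted the log2 ratio of every gene by -0.19. All 10 members then lay below WT, with Orm1 at a log2 ratio of -0.16 and Saa1 at -0.27. Under the other scalings tried, 9 of 10 members lay below WT. The share of all genes below WT was not taken under these scalings. Adipocyte markers were also below WT. Of 6, 3 were lower and all 6 were below WT, among them Plin1 at 47.2 and 21.1 FPKM and Adipoq at 112 and 75.7 FPKM, and their part in the member values was not tested. Fabp4, the most abundant of them, was at 3408 and 3037 FPKM.

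Other acute-phase plasma proteins had a median above that of the members. Of 20 listed, 5 were lower, 1 was higher, and 17 reached 0.1 FPKM in 1 or both libraries, with a median log2 ratio of 0.13. Serpina3n, a protease inhibitor and the most abundant of them, was at 723 FPKM in WT against 805 FPKM in PU.1-/-. Lbp, which presents bacterial lipopolysaccharide to its receptor, was at 22.6 and 41.1 FPKM, 182% of WT. The lower genes were Hpx, which binds free haem, at 20.1 and 5.04 FPKM, Serpina3k at 7.05 and 1.70 FPKM, Itih4 at 5.31 and 0.288 FPKM, Fgg at 2.03 and 0.765 FPKM, and Hamp at 0.400 FPKM and 0, from 1 and 0 estimated reads. The higher gene, Itih3, was at 0.276 and 0.722 FPKM, from 11 and 32 estimated reads. Crp was at 0 in both libraries.

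Other secreted antimicrobial proteins numbered 26, of which 10 were lower and 1 was higher, with a median log2 ratio of -0.54 over the 25 that reached 0.1 FPKM. Of the lower genes, Camp, Ltf, Ngp and Lyz2 are also among the neutrophil or macrophage markers above. The calprotectin subunits S100a8 and S100a9, made by neutrophils and by stressed keratinocytes, were at 6600.4 and 5311 FPKM in WT against 2129 and 1516 FPKM in PU.1-/-. The granule proteins Ngp and Ltf were at 311 and 37.1 FPKM in WT against 0 in PU.1-/-, and the lysozyme gene Lyz2 was at 85.5 and 0.520 FPKM. The epithelial beta-defensins Defb1 and Defb14 were at 215 and 233 FPKM in WT against 225 and 160.3 FPKM in PU.1-/-, and Defb3 was lower, at 28.8 and 13.7 FPKM. The higher gene was Reg3g, a lectin that kills bacteria, at 14.6 and 39.3 FPKM. Of 5 listed genes in the same protein family as Slpi, Wfdc17 was lower, at 152 and 3.94 FPKM. The other 4 were neither, with Wfdc21 at 251 and 131 FPKM, Wfdc12 at 53.2 and 35.7 FPKM, Wfdc2 at 1.31 and 1.27 FPKM and Wfdc18 at 3.49 and 3.99 FPKM.

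**Figure D5:**
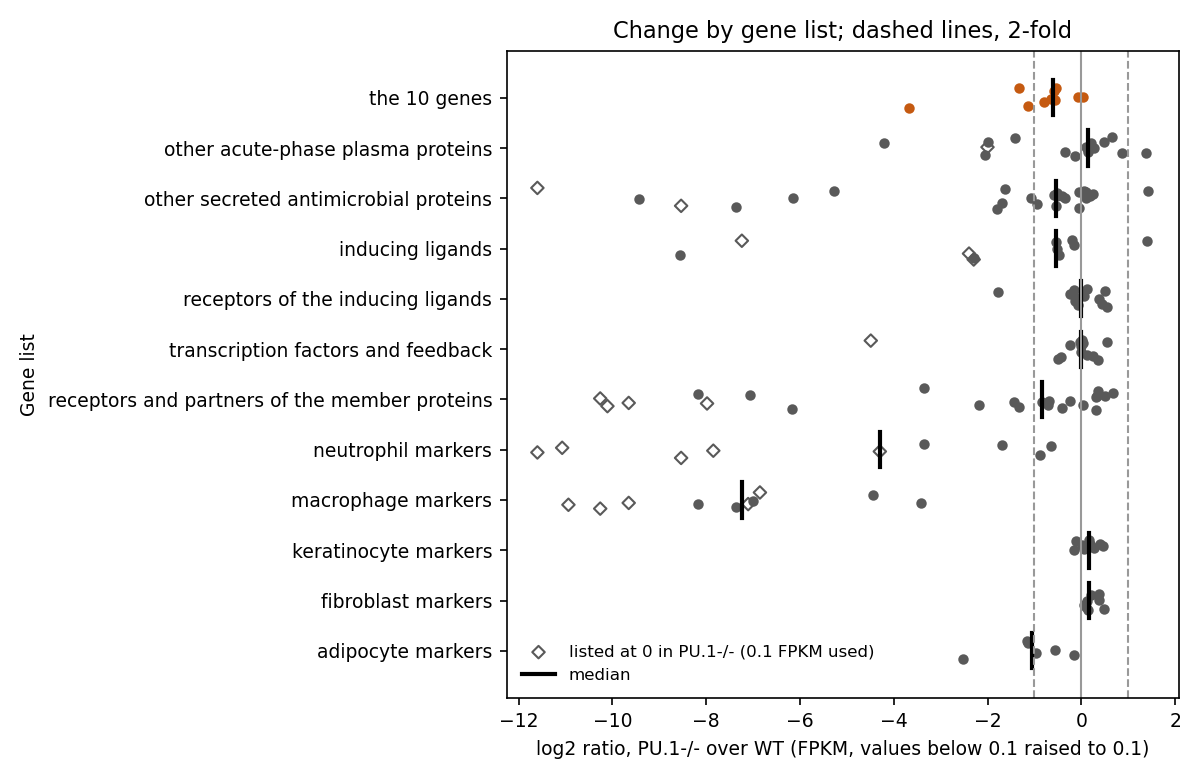
log2 ratio of PU.1-/- over WT (x axis, FPKM with values below 0.1 raised to 0.1) for each gene of the lists on the y axis, as points, with the median of each list as a bar. Open diamonds are genes listed at 0 in PU.1-/-, whose position depends on the 0.1 FPKM floor, and dashed lines mark 2-fold. The members have a median of -0.61, the inducing ligands of -0.55 and the receptors of those ligands of -0.01.

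Among 13 genes for ligands that induce acute-phase genes, 5 were lower and 1 was higher, with a median log2 ratio of -0.55 over the 11 that reached 0.1 FPKM. Il1b was at 63.9 FPKM in WT against 0.169 FPKM in PU.1-/-, Tnf at 6.40 and 1.31 FPKM and Osm at 15.1 FPKM and 0. Il17a and Il17c were at 0.526 and 0.491 FPKM in WT against 0 in PU.1-/-. Estimated reads were 7 and 0 for Il17a and 4 and 0 for Il17c, whose interval ran from 0 to 132% of WT. Il6, the main inducer in the liver, was at 70.3 and 50.4 FPKM, 71.8% of WT (65.0 to 79.1%), which is neither lower nor higher by the 2-fold rule. Il1a was at 16.3 and 11.1 FPKM, and Il36a, listed under its older symbol Il1f6, at 25.4 and 22.9 FPKM. Lif, a cytokine that shares the receptor chain Il6st with Il6, was the higher gene, at 1.68 and 4.42 FPKM.

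Receptors of these ligands and the factors below them had medians near 0. Of 12 receptor genes 1 was lower, Tnfrsf1b, at 11.2 and 3.29 FPKM, and the median log2 ratio was -0.01. Il6st was at 60.1 FPKM in WT against 85.1 FPKM in PU.1-/-, and Il1r1 at 57.0 and 77.8 FPKM. Of 16 transcription factor and feedback genes 1 was lower, Cebpe, a factor of granulocyte development, at 2.25 FPKM and 0, and the median was -0.00. Stat3 was at 97.9 and 126 FPKM, Cebpb at 122 and 124 FPKM and Cebpd at 60.9 and 89.2 FPKM. The STAT3 target Socs3 was at 114 and 113 FPKM, and Nfkbiz, an NF-kB cofactor of Lcn2 induction, at 31.1 FPKM in WT and at 70.8% of that in PU.1-/-.

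The receptors and partners of the member proteins held 11 lower genes of 24 and 0 higher ones, with a median log2 ratio of -0.84. The 11 became 9 with a floor or a pseudocount of 1 FPKM. Of the lower genes, C1qa, C1qb, Cd163 and Elane are also among the neutrophil or macrophage markers. For SAA, the chemoattractant receptor Fpr2 was at 13.4 FPKM in WT against 0.0579 FPKM in PU.1-/-, Tlr2 at 13.2 and 5.26 FPKM and Tlr4 at 8.41 and 3.12 FPKM, while the lipid receptors Scarb1 and Cd36 were at 79.6 and 135 FPKM in WT against 98.2 and 138 FPKM in PU.1-/-. Cd163, which clears haptoglobin bound to haemoglobin, was at 29.0 and 0.0448 FPKM, so the PU.1-/- wound held Hp transcript at 1249.8 FPKM with its scavenger receptor near 0. For Slpi, transcripts of the target proteases Elane and Ctsg were low in WT, at 1.02 and 0.456 FPKM. They were at 0.0887 and 0.0795 FPKM in PU.1-/-. Estimated reads were 11 in WT and 1 in PU.1-/- for Elane, and 5 and 1 for Ctsg. Protein was not measured.

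Ptx3 has partners in complement, matrix and growth factor signalling. The complement genes C1qa, C1qb and C1qc were at 80.6, 123 and 110.3 FPKM in WT against 0 in PU.1-/-, and Tnfaip6, which joins Ptx3 to hyaluronan in matrix, was at 126 and 155 FPKM. Fgf2, a growth factor that Ptx3 binds, was at 4.79 and 7.69 FPKM. Mmp9, whose human protein forms a complex with human lipocalin 2, was at 34.5 and 19.3 FPKM. Trem1, a receptor for the Pglyrp1 protein, was at 14.4 and 0.200 FPKM. The Lrg1 co-receptor Eng and the receptor Tgfbr2 were at 23.5 and 80.1 FPKM in WT against 29.6 and 102 FPKM in PU.1-/-, and the receptor Acvrl1 was at 10.9 and 9.19 FPKM.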

How the data were processed

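Skin wounds of WT and PU.1-/- pups were sequenced by the authors as 1 stranded mRNA library per genotype, in single-end reads of 75 bases called with CASAVA 1.8.2. The authors deposited FPKM values, calculated with Cuffnorm 2.2.1 per the paper's methods. The submitters' processing notes name TopHat2 2.1.1, Bowtie2 2.2.8, SAMtools 0.1.18, Cuffdiff 2.2.1 and the mm10 build. The annotation is not given in the sources used here. How these tools divide reads among near-identical genes can affect Saa1, Saa2 and Orm1, which was not tested.

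Ratios used the deposited FPKM with values below 0.1 raised to 0.1. Genes were called at a ratio of 2. Relative depth was taken from low genes: in 459 of 4542 below 2 FPKM the WT value was 1.15 times the PU.1-/- value, within 0.001, which was read as equal read numbers. Absolute depth came from 440 genes taken as 1 read, with GENCODE M21 transcript lengths less 200 nt. Of 1823 low values, 84.7% lay within 0.15 of a whole number of reads. All 10 members have 1 transcript linked to RefSeq. Functions were tested on simulated data.

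Members and lists were chosen with earlier results of these data known. Text names the members, Spi1, list genes and the 3 genes nearest to Saa3 by log2 FPKM, the rule for named genes. In those lists Ly6g was not matched, and Il36a was read as Il1f6 after the symbols were seen. Upstream sequences come from RefSeq (GRCm38.p6) and coding sequences from GENCODE. The tools were matplotlib 3.10.9, numpy 2.4.6, pandas 2.3.3 and scipy 1.17.1, in Python 3.11.15.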

Additional observations from a re-analysis of the deposited data

How the results depend on the processing

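No paired analysis was possible because each genotype has 1 library, and no library could be left out. The number of members lower was 3, and became 6 at a ratio of 1.5 and 1 (Pglyrp1) at a ratio of 3. It stayed at 3 under every other floor, pseudocount, scaling and level filter tried, and the number higher was 0 throughout. Over all genes, 1057 lower and 565 higher became 463 and 164 with a floor of 1 FPKM, 461 and 89 with a pseudocount of 1 FPKM, 1867 and 1410 at a ratio of 1.5, 681 and 150 at a ratio of 3, 589 and 226 among genes of at least 1 FPKM, and 209 and 64 among genes of at least 10 FPKM in 1 or both libraries. Scaling to keratinocyte and fibroblast markers shifted every log2 ratio by -0.19 and gave 1269 lower and 363 higher genes. Over 8 settings of floor, pseudocount and scaling the log2 ratio ran from -1.32 to -1.08 for Saa3, from -1.51 to -1.27 for Saa2, from -3.86 to -3.29 for Pglyrp1 and from -0.16 to 0.08 for Orm1. The 5 lower inducing ligands became 3 with a floor of 1 FPKM, and the 5 lower acute-phase plasma proteins became 3 with a pseudocount of 1 FPKM and 1 among genes of at least 10 FPKM. Estimated reads limit the intervals, which hold no spread between animals.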
